A study of Homo sapiens with 15 samples.

Results

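Decorin and 7 related small proteoglycan genes were followed through 15 RNA-seq libraries of MCF-10A, an immortalised but non-tumorigenic breast epithelial line of human origin that the sample labels list as MCF10. The 8 genes, out of 60721 in the count table, are decorin (DCN), lumican (LUM), biglycan (BGN), fibromodulin (FMOD), PRELP, osteoglycin (OGN), asporin (ASPN) and extracellular matrix protein 2 (ECM2). They were taken by name, and DCN was selected on its measured level, which was higher in NF1-edited lines in these same data. Its difference between edited and unedited cells is therefore given as a description with no test. The other genes, and DCN in the remaining comparisons, were tested.

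The libraries form 5 genotypes of 3 libraries each. Parental cells carry no vector, and empty-vector cells are the vector control. The 3 NF1-edited lines received guide RNA 1 (labelled NF1-g1), guide RNA 2, or guides 1 and 2 together. NF1 encodes neurofibromin, which switches RAS off. All cells were untreated and grown in the same phenol red-free medium with horse serum, EGF, hydrocortisone, cholera toxin and insulin, so every group received EGF throughout. The labels do not say whether an edited line is 1 clone or a pool. They call the replicates biological without saying that they were cultured separately, so p-values measure only the spread between these libraries.

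Small leucine-rich proteoglycans are secreted proteins with a core of leucine-rich repeats, most of them carrying glycosaminoglycan chains. They bind fibrillar collagens and set the width and spacing of fibrils, and decorin and biglycan also bind TGF-beta and cell surface receptors. In the breast they are known mainly as products of stromal fibroblasts, and decorin is known to bind and lower EGF receptor family activity.

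Decorin and biglycan belong to the same class of the family, and each normally carries chondroitin or dermatan sulphate. DCN lies on chromosome 12 (91140484 to 91183123, minus strand, GRCh38) and BGN on chromosome X (153494939 to 153509554, plus strand). The longest run of identical bases that their coding sequences share is 18 bases, against 10 between DCN and LUM and 11 between DCN and ECM2. The shared run is printed here, in capitals, because no longer stretch of the coding sequences is the same in both genes. Both stretches lie in coding exons, in the leucine-rich repeats, and come from GENCODE release 29 transcripts, at chr12:91151659-91151756 (minus strand) for DCN and chrX:153507083-153507180 (plus strand) for BGN.
DCN: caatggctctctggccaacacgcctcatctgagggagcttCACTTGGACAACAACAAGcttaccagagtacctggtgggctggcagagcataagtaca
BGN: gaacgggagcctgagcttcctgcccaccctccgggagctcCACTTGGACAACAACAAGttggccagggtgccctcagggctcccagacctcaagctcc

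The total count per library ranged from 46129559 to 78976917. Levels are given as CPM, the usual unit in which a gene's counts are scaled to its library's total. NF1 transcript checked the labels: it was 1.40 lower on the log2 scale with guide 1, 2.09 lower with guide 2 and 2.16 lower with both guides than with empty vector (edgeR, adjusted p 4.71e-06, 1.22e-07 and 8.22e-08). One library stood apart. Guide 2 replicate 2 correlated at 0.947 with its own replicates over genes, where all other replicate pairs gave 0.979 to 0.995, and its value on the first principal component was 91.94 against -45.89 and -47.79 for the other guide 2 libraries. Member results that rest on guide 2 are given with and without it.

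Epithelial markers varied widely among libraries of the same cell line. All 6 basal mammary markers were detected in every library, with a summed level of 9094 CPM in guide 2 replicate 2 and 1681 to 6560 CPM in the others. By genotype the sum was 1946 to 5281 CPM in parental, 4555 to 6560 CPM with empty vector, 1681 to 2724 CPM with guide 1, 2011 to 9094 CPM with guide 2 and 2536 to 2752 CPM with both guides. CDH1, the epithelial cadherin, was at 0.019 to 0.158 CPM with guide 1 and at 0.036 and 0.043 CPM in guide 2 replicates 1 and 3, against 91.4 CPM in guide 2 replicate 2. It was at 14.8 to 23.4 CPM with both guides, 44.1 to 127 CPM with empty vector and 1.79 to 42.9 CPM in parental cells. CDH1 is 1 of 4 general epithelial markers, with EPCAM, KRT8 and KRT18. Their summed level was 255 to 280 CPM with guide 1, 318 to 458 CPM with guide 2 and 361 to 375 CPM with both guides. It was 399 to 486 CPM with empty vector and 311 to 348 CPM in parental cells. Over all libraries KRT8 was at 70.2 to 176 CPM and KRT18 at 131 to 204 CPM. The basal sum and CDH1 tended to be low where decorin was high. The guide 1 libraries and guide 2 replicates 1 and 3, where CDH1 was lowest, had the most decorin. Guide 2 replicate 2, with the highest basal sum, had the least, at 55.4 CPM. Parental replicate 2 was an exception, with CDH1 at 1.79 CPM, a basal sum of 1946 CPM and decorin at 126 CPM. That lay inside the unedited decorin range of 82.3 to 130.4 CPM. The part of these markers in the decorin results was not tested. In bulk RNA, fewer cells of a type and less RNA per cell cannot be told apart.

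Of the 10 fibroblast markers, other than the genes described here, 6 to 8 had at least 3 counts in a library. Their summed level was 65.3 to 107 CPM in the edited libraries and 131 to 265 CPM in the unedited ones, most of it from FAP, POSTN and TWIST1. FAP had 1929 to 6001 counts a library, COL1A1 182 to 1074 and PDGFRB 26 to 231, while COL3A1, THY1 and TCF21 had at most 3, 4 and 3 counts in any library. Summed endothelial markers reached 2.82 CPM and summed leukocyte markers 0.13 CPM, with CD3E at 0 counts in all 15 libraries. Summed chondrocyte markers were at 5.98 to 17.5 CPM, from MATN3 and SOX9, while ACAN had at most 4 counts.

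Decorin had the most counts of the 8 transcripts in every library. It was at 98.0, 126 and 91.9 CPM in parental replicates 1, 2 and 3, and at 127, 130.4 and 82.3 CPM with empty vector. With guide 1 it was at 965, 1095 and 432 CPM. With guide 2 it was at 329, 55.4 and 400.2 CPM. With both guides it was at 245, 251 and 227 CPM. Of the 9 edited libraries, 8 lay above all 6 unedited ones, and guide 2 replicate 2 lay below them all. The share of all genes with such a separation is not given, here or for the genes below. It therefore cannot be called particular to them.

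**Figure D1:**
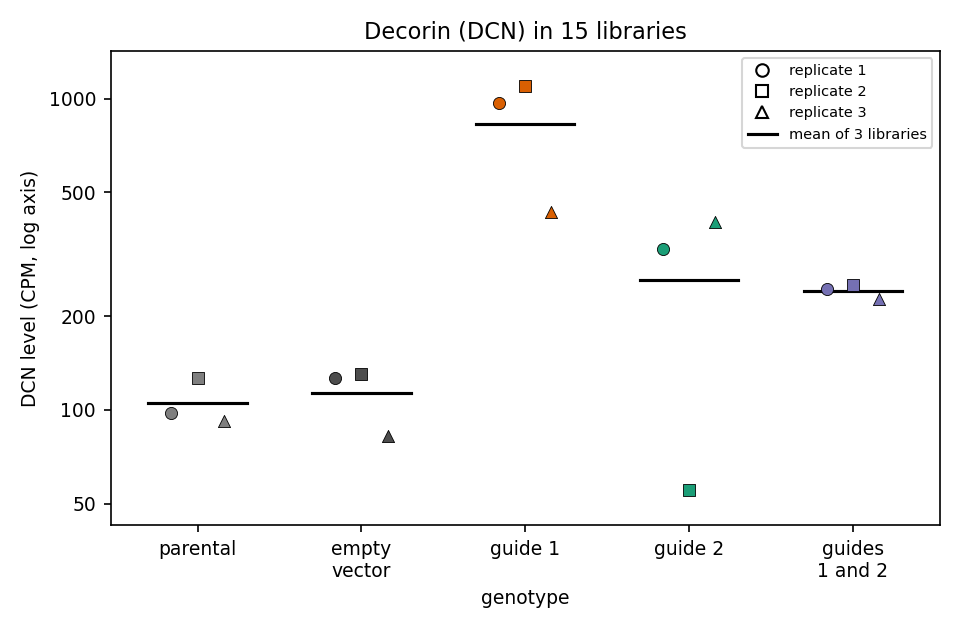
Level of DCN in each of the 15 libraries (CPM, logarithmic axis) by genotype, with a symbol for each replicate number and a bar at the mean of 3 libraries. The unedited libraries sit between 82.3 and 130.4 CPM, 8 edited libraries sit between 227 and 1095 CPM, and guide 2 replicate 2 sits at 55.4 CPM.

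Mean decorin levels were 831 ± 352 CPM with guide 1, 261 ± 182 CPM with guide 2, 241 ± 12.6 CPM with both guides, 113 ± 26.7 CPM for the vector control and 105 ± 18.4 CPM for parental cells (each the mean and SD of n = 3). Without replicate 2, the guide 2 mean was 364 ± 50.7 CPM (SD, n = 2). Going down that order, guides 1 and 2 did not overlap (432 against 400.2 CPM at the nearest), guide 2 and both guides overlapped, both guides and empty vector did not, and the unedited groups overlapped. As a ratio of mean CPM, decorin was 7.35 times higher with guide 1 than with empty vector, 2.31 times with guide 2 and 2.13 times with both guides. In edgeR the log2 differences from empty vector were 2.87 (SE 0.55), 1.20 (SE 0.52) and 1.07 (SE 0.52), and those from parental cells were 3.00, 1.33 and 1.20. Without guide 2 replicate 2, the guide 2 differences were 1.66 and 1.80. The 2 sets share the edited libraries and, being the differences for which DCN was chosen, carry no p.

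Where decorin could be tested it did not pass the threshold, an adjusted p under 0.05 over all 17457 genes tested. The log2 difference of parental from empty-vector cells was -0.13 (edgeR adjusted p = 0.927, SE 0.52). Guide 1 lay 1.67 above guide 2 (SE 0.53, adjusted p = 0.317), or 1.20 above it without guide 2 replicate 2 (adjusted p = 0.256). Both guides lay 1.80 below guide 1 (SE 0.53, adjusted p = 0.214) with no overlap of the libraries. Without guide 2 replicate 2, that difference passed, at -1.80 (adjusted p = 0.00391). Guide 1 held the highest mean decorin of the lines for whose rise DCN was picked. Its comparisons with the other edited lines are therefore not independent of that choice. Both guides and guide 2 differed by -0.13 (SE 0.52, adjusted p = 0.992), and by -0.60 without guide 2 replicate 2 (adjusted p = 0.429), and that sign turned in some fits that left out another library.

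Per kilobase of annotated exon, decorin stood higher in the order of all transcripts in the edited lines than in the controls. It had 8.8 CPM per kilobase with empty vector, rank 4612 of 28307 genes with a count, and 8.2 in parental cells, rank 4949 of 28394. With guide 1 it had 64.7 CPM per kilobase, rank 546 of 28642. With guide 2 it had 20.3, rank 2152 of 28841, and without replicate 2 the line had 28.4, rank 1473 of 26891. With both guides it had 18.7, rank 2353 of 27692. These values use 12847 exon bases merged over 20 annotated transcripts, so they would be higher for any single transcript. Biglycan had 2.2 CPM per kilobase with empty vector and 1.39 with guide 1. Over all libraries decorin was 21.6 times higher than biglycan per kilobase, 84.9 times higher than ECM2 and 178 times higher than lumican. These averages mix unlike groups. Against biglycan the factor was 4.0 with empty vector, 6.51 in parental cells, 46.5 with guide 1, 69.5 with guide 2 and 43.1 with both guides.

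**Figure D2:**
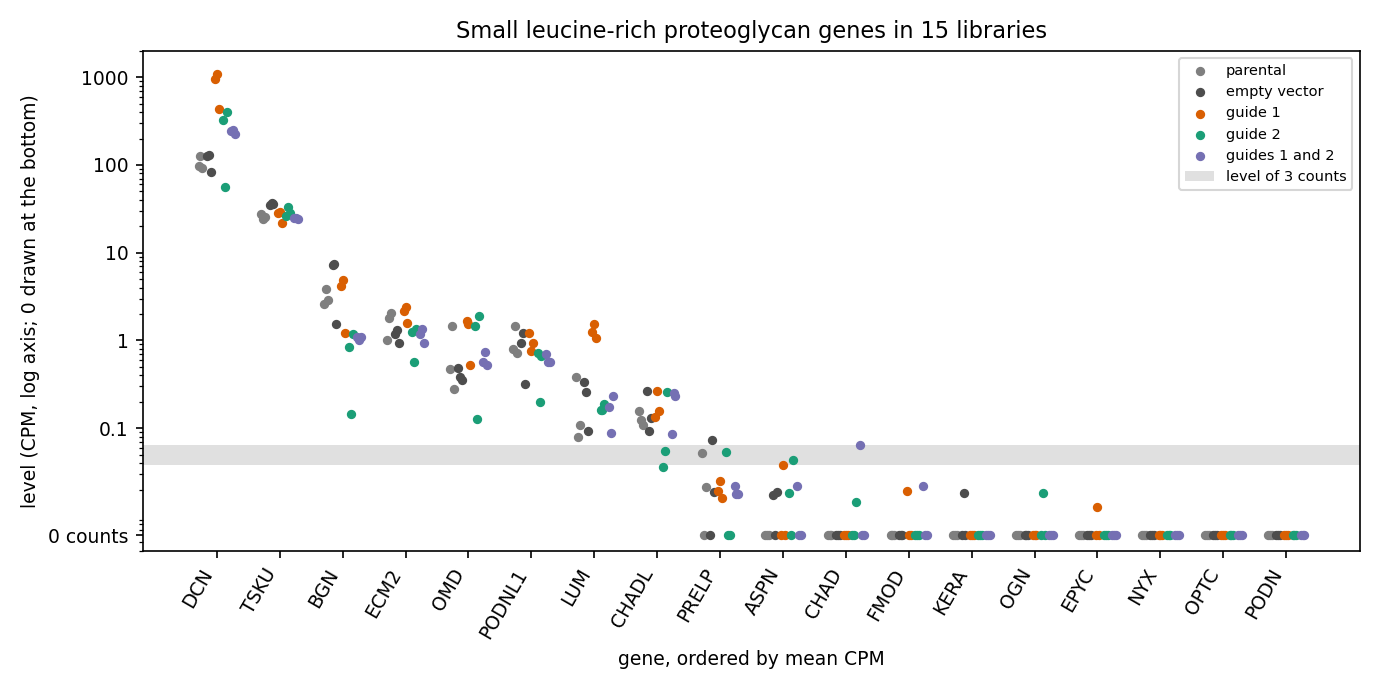
Level of the 8 genes and of the 10 other small leucine-rich proteoglycan genes in each of the 15 libraries (CPM, logarithmic axis with 0 drawn at the bottom), coloured by genotype, genes ordered by mean CPM. On this scale, which is not adjusted for gene length, DCN has the highest value in every library, while FMOD, PRELP, OGN and ASPN lie at 0 or about the level of 3 counts (grey band).

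Lumican, a keratan sulphate proteoglycan of cornea, skin and tendon, is encoded 28652 bases from DCN on the same strand of chromosome 12 (91102629 to 91111831). It was scarce, with 5 to 122 counts a library. With guide 1 it was at 1.26, 1.54 and 1.08 CPM (66, 122 and 68 counts). With empty vector it was at 0.333, 0.258 and 0.0933 CPM, and in parental cells at 0.386, 0.0783 and 0.108 CPM. With guide 2 it was at 0.163, 0.163 and 0.188 CPM, and with both guides at 0.173, 0.0891 and 0.232 CPM. All 3 guide 1 libraries lay above the other 12, whose groups overlapped one another. How common such a separation is among all genes is not given.

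Lumican rose with guide 1 against empty vector, with a log2 difference of 2.49 (edgeR adjusted p = 0.0168, SE 0.52). It was the only one of the 3 members tested there that passed, in a comparison where 5.88% of all genes did. It fell in the line with both guides against guide 1, with a log2 difference of -2.97 (SE 0.54, adjusted p = 0.0415), as 1 of 4 members tested where 0.275% of all genes passed. Against parental cells guide 1 was 2.76 higher (SE 0.53, adjusted p = 0.0668), and against guide 2 it was 2.90 higher (SE 0.53, adjusted p = 0.108). With guide 2 replicate 2 left out, these were 2.77 (adjusted p = 0.00624, past the threshold) and 2.88 (0.0898). The call against empty vector was lost without guide 1 replicate 1 (adjusted p = 0.057), guide 1 replicate 2 (0.0746) or empty vector replicate 3 (0.0849), while the other 12 of 15 fits kept it. The call for both guides against guide 1 held in 5 of 15 such fits, those without empty vector replicate 3, guide 1 replicate 3, guide 2 replicate 2 and parental replicates 1 or 2. It was lost in the other 10, at adjusted p from 0.0564 to 0.249. Lumican reached the count filter, 0.179 CPM in 3 libraries, in 8 libraries, of which 5 lay outside guide 1.

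Biglycan, a proteoglycan of bone and skin that also signals through Toll-like receptors, did not share decorin's rise in the edited lines. In guide 1, guide 2 and empty vector, the library lowest for decorin was also lowest for biglycan. In parental cells and with both guides it was not. With empty vector it was at 7.23, 7.39 and 1.53 CPM, and in parental cells at 2.61, 3.81 and 2.88 CPM. With guide 1 it was at 4.19, 4.85 and 1.20 CPM. With guide 2 it was at 0.831, 0.145 and 1.17 CPM, and with both guides at 1.08, 1.02 and 1.09 CPM. Of the 9 edited libraries, 7 lay below all 6 unedited ones, and guide 1 replicates 1 and 2 lay among them. The values rest on 8 to 413 counts, and empty vector replicate 3 was well below its own group.

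Biglycan fell with guide 2 against empty vector, with a log2 difference of -2.90 (SE 0.70, edgeR adjusted p = 0.0371), as 1 of 3 members tested where 3.94% of all genes passed. Without guide 2 replicate 2 the difference was -2.45 (adjusted p = 0.0213). The call held in 6 of 15 fits that left out 1 library, those without empty vector replicate 3, guide 1 replicates 2 or 3, guide 2 replicate 2 and parental replicates 1 or 2. It was lost in the other 9, at adjusted p from 0.0534 to 0.11. With both guides against empty vector the difference was -2.35 (SE 0.68, adjusted p = 0.125), which passed without guide 2 replicate 2 (-2.37, adjusted p = 0.0237). With guide 1 it was -0.65 (SE 0.64, adjusted p = 0.599). Against parental cells the differences were -2.08 with guide 2 (adjusted p = 0.468, or -1.61 and 0.141 without replicate 2), -1.53 with both guides (0.467) and 0.16 with guide 1 (0.895). BGN overlaps the gene HAUS7 on the opposite strand, which had 7 to 28 counts and shares no exon base with it.

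ECM2, a matrix protein with leucine-rich repeats related to decorin's, is encoded on chromosome 9 (92493554 to 92536655, minus strand). With guide 1 it was at 2.16, 2.41 and 1.57 CPM. With empty vector it was at 1.17, 1.31 and 0.933 CPM, and in parental cells at 1.00, 1.79 and 2.06 CPM. With guide 2 it was at 1.25, 0.562 and 1.36 CPM, and with both guides at 1.17, 1.35 and 0.930 CPM. Guide 1 lay above empty vector, guide 2 and both guides without overlap, but overlapped parental cells. Its log2 differences for guide 1 were 0.84 against empty vector (SE 0.34, edgeR adjusted p = 0.168) and 0.95 against guide 2 (SE 0.34, adjusted p = 0.317). Leaving out guide 2 replicate 2, they were 0.83 (adjusted p = 0.0446, past the threshold) and 0.66 (0.605). Of 15 fits that left out 1 library, only this 1 passed for guide 1 against empty vector, and the adjusted p reached 0.48 in the others. ECM2 lies inside CENPP, which is on the opposite strand, had 336 to 814 counts and shares no exon base with it. Whether counting used strand is not given in the sources used here.

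**Figure D3:**
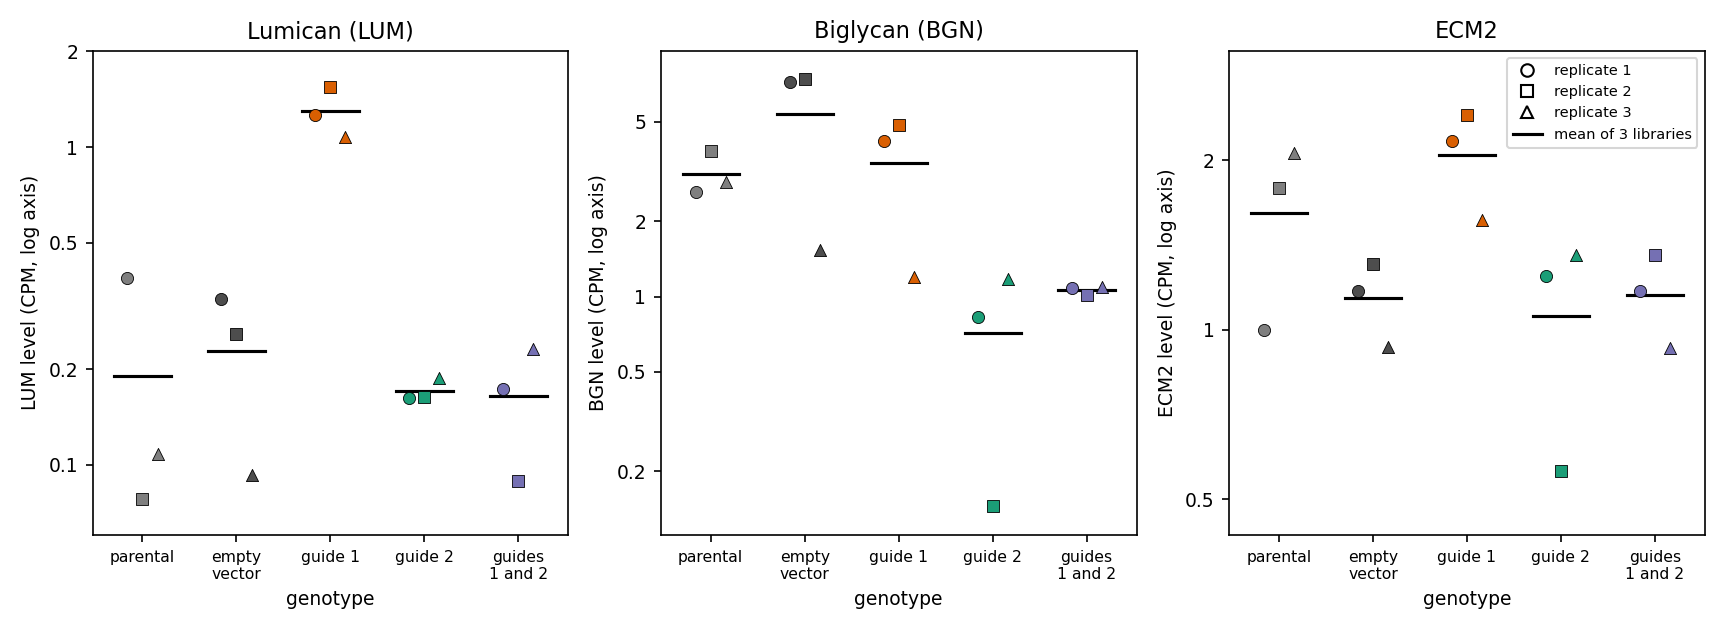
Levels of LUM, BGN and ECM2 in each of the 15 libraries (CPM, logarithmic axes) by genotype, with a symbol for each replicate number and a bar at the mean of 3 libraries. LUM stands apart with guide 1, BGN is lowest with guide 2 and with both guides, and guide 2 replicate 2 is the lowest library for BGN and ECM2.

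The other 4 genes were hardly detected. Fibromodulin, a fibril regulator of tendon and cartilage, had 2 counts over all 15 libraries. Osteoglycin, found in bone and vessel walls, had 1 count. Asporin, which carries an aspartate repeat in place of a chain attachment region, had 10 counts and at most 3 in a library. PRELP, thought to anchor basement membranes to connective tissue, had 19 counts over 11 libraries and at most 4 in one. In these libraries 3 counts correspond to 0.038 to 0.065 CPM, and differences below that were not detectable at this depth. None of the 4 reached the count filter, so 4 of the 8 genes were tested.

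OGN, ASPN and ECM2 form a cluster on chromosome 9 with osteomodulin (OMD), a keratan sulphate proteoglycan of bone, and all lie within CENPP. OMD was at 1.68, 1.53 and 0.522 CPM with guide 1 and at 1.46, 0.127 and 1.88 CPM with guide 2. It was at 0.564, 0.731 and 0.518 CPM with both guides, 0.490, 0.387 and 0.354 CPM with empty vector, and 0.474, 1.44 and 0.281 CPM in parental cells. Of the edited libraries, 4 lay above all unedited ones and 1 lay below. Guide 2 replicate 2 held the lowest level of DCN, BGN, ECM2 and OMD among all 15 libraries.

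Across the comparisons few members passed. Both guides against empty vector had 0 of 3 members called by edgeR (0.962% of all genes called), with 1 at an unadjusted p under 0.05 (14.0% of all genes) and 1 called by DESeq2. Against parental cells the counts were 0 of 3 for guide 1 (0.149% of all genes), for guide 2 (0.0516%) and for both guides (0.195%), each with 1 member at an unadjusted p under 0.05, as had 19.9%, 7.37% and 9.98% of all genes. DESeq2 called 1, 0 and 0. Parental against empty vector had 0 of 4 (4.37% of all genes), with 0 at an unadjusted p under 0.05 and 0 by DESeq2. The average edited line against the average control had 0 of 3 (1.51% of all genes), with 1 at an unadjusted p under 0.05 (15.8% of all genes) and 1 by DESeq2: biglycan, at -1.56 (SE 0.42, edgeR adjusted p = 0.0868), and at -1.41 without guide 2 replicate 2 (0.014).

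Among the edited lines, 1 call was made: lumican, lower with both guides than with guide 1. Guide 1 against guide 2 had 0 of 4 called by edgeR (0.0401% of all genes called) and 2 called by DESeq2. All 4 members were higher with guide 1 at an unadjusted p under 0.05, where 15.2% of all genes had such a p in either direction. Their log2 differences were 1.67 for DCN, 2.90 for LUM, 2.24 for BGN and 0.95 for ECM2. Guide 2 replicate 2 was the lowest library for DCN, BGN and ECM2, and without it the differences were 1.20, 2.88, 1.78 and 0.66. None of them passed in that fit (edgeR adjusted p 0.256, 0.0898, 0.503 and 0.605), and its unadjusted p-values are not given. Both guides against guide 1 had the same 4 at -1.80, -2.97, -1.70 and -0.84, each at an unadjusted p under 0.05 as had 13.0% of all genes. These comparisons share the guide 1 libraries, where the rise for which DCN was picked was largest. The place of DCN among the 4 is therefore not independent of that choice. Both guides against guide 2 had 0 of 4 (0.149% of all genes), with 0 at an unadjusted p under 0.05 and 0 by DESeq2. NF1 transcript itself was 0.69 higher with guide 1 than with guide 2 (SE 0.09, edgeR adjusted p = 0.0121).

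**Figure D4:**
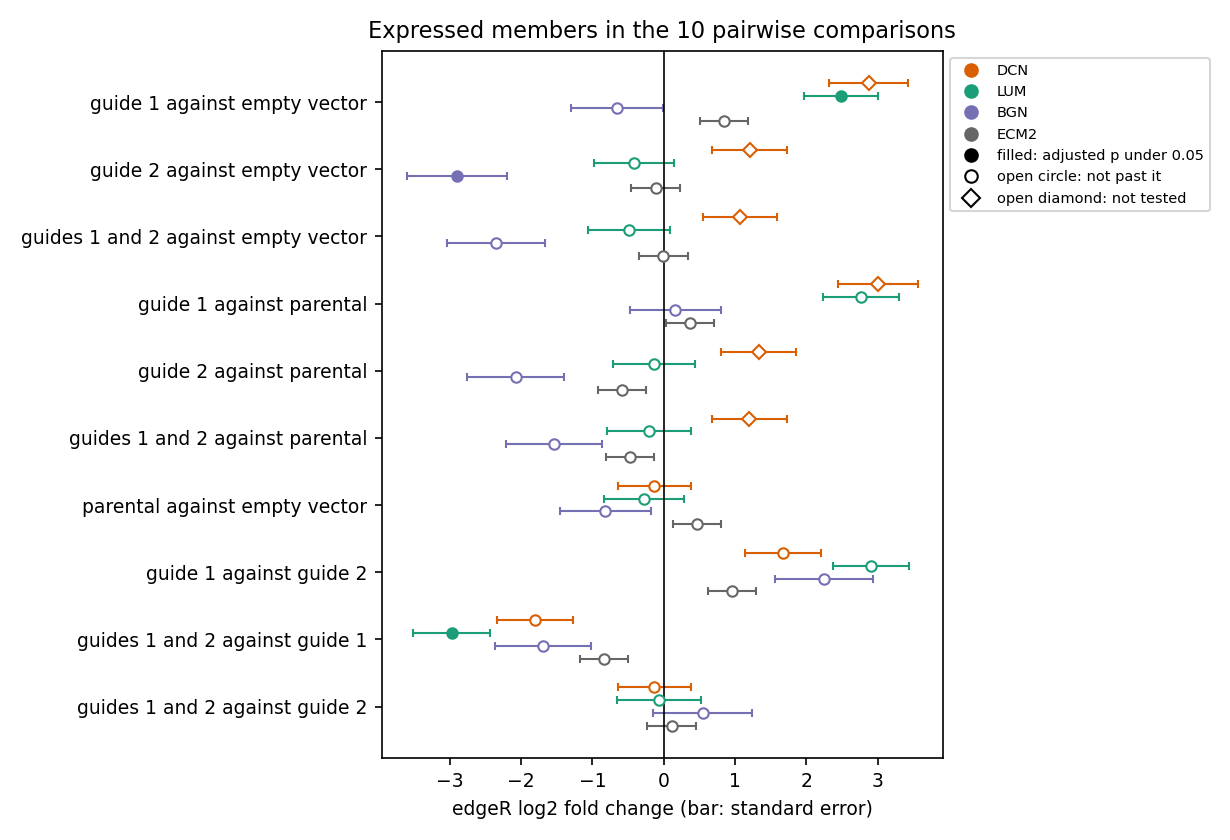
Log2 fold changes of DCN, LUM, BGN and ECM2 in the 10 pairwise comparisons of genotypes, with bars of 1 SE from the edgeR fit, filled where the adjusted p is under 0.05, open circles where it is not, and diamonds where DCN was not tested. DCN lies above 0 in every edited line against empty vector, LUM in guide 1 (2.49), and BGN lies at -2.90 with guide 2.

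The ratio of decorin to biglycan within a library separated the edited from the unedited lines without overlap, as a description since it contains decorin. The share of other gene ratios with such a separation is not given, so it cannot be called particular to this ratio. The ratio was 37.5, 33.2 and 31.9 in parental cells and 17.5, 17.6 and 53.8 with empty vector. It was 230, 226 and 359 with guide 1, 395, 382 and 342 with guide 2, and 226, 247 and 208 with both guides. Guide 2 replicate 2, the lowest library for each gene alone, had a ratio of 382 beside 395 and 342 in its replicates, from 3054 decorin and 8 biglycan counts.

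**Figure D5:**
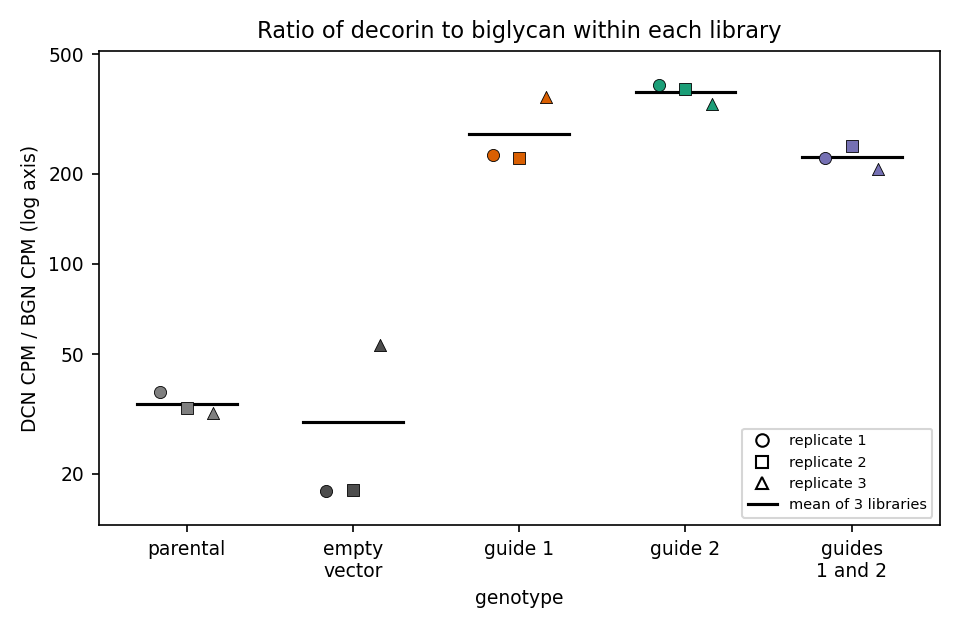
Ratio of DCN to BGN (CPM over CPM, logarithmic axis) in each of the 15 libraries by genotype, with a symbol for each replicate number and a bar at the mean of 3 libraries. The 9 edited libraries lie between 208 and 395 and the 6 unedited libraries between 17.5 and 53.8.

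Over the 15 libraries the log2 CPM of DCN correlated with that of LUM at r = 0.699, of ECM2 at 0.65 and of BGN at 0.217. Without guide 2 replicate 2 these were 0.715, 0.548 and -0.091. Among 11729 genes with an average log2 CPM of at least 1, the 5 most like DCN were CLYBL (r = 0.952), PFDN5 (0.949), PON2 (0.948), LINC00886 (0.939) and GPRC5A (0.938). The 3 least like it were BRD1 (-0.961), RUNX1 (-0.957) and EPHB3 (-0.955). This order depended on the measure and on 1 library. When guide 2 replicate 2 was left out, the 5 ranked 4, 5, 6, 12 and 13 and RUNX1 was the least like, and by Spearman's rho they ranked 3, 19, 56, 32 and 112. GPRC5A, an orphan receptor, was at 368 to 599 CPM with guide 1 and at 274 to 361 CPM in unedited cells, a narrower spread than decorin's. EPHB3, an ephrin receptor, ran the other way, at 0.582 to 0.918 CPM with guide 1 and at 2.57 to 6.57 CPM in unedited cells, with its highest level, 8.01 CPM, in guide 2 replicate 2. The points share genotypes and libraries, so the likeness is a description.

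Of 22 genes of chondroitin and dermatan sulphate synthesis, 20 were tested. Against empty vector 1 rose and 3 fell with guide 1, 2 fell with guide 2 and 0 passed with both guides, where 5.88%, 3.94% and 0.962% of all genes passed. The list had median log2 differences of -0.01, -0.12 and -0.07 beside 0.02, 0.03 and 0.00 over all genes. DSE, the epimerase that turns chondroitin into dermatan sulphate, fell by 0.77 with guide 1 (SE 0.16, edgeR adjusted p = 0.0187) and by 0.72 with guide 2 (SE 0.16, adjusted p = 0.0292). Its means were 65.1, 67.8 and 72.5 CPM in the guide 1, guide 2 and both-guides lines, against 110.2 CPM with empty vector and 81.8 CPM in parental cells. CHST11, a chondroitin sulphotransferase, fell by 0.67 with guide 1 (adjusted p = 0.0129) and CHSY1, a chain polymerase, fell by 0.36 (0.0124), while CHST12 rose by 0.41 (0.0488). CHPF, a polymerising factor, fell by 0.50 with guide 2 (0.0154). CHST11 and CHPF also fell in parental against empty vector, by 0.53 and 0.54, and against parental cells 0 of 20 passed in any edited line.

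Of 6 keratan sulphate genes, relevant to lumican and OMD, 3 were tested. B4GALT1, a galactosyltransferase, fell by 0.60 with guide 2 against empty vector (edgeR adjusted p = 0.0253), where 3.94% of all genes passed. For B4GALT1, parental cells lay 0.42 below empty vector (0.0925), and guide 2 lay 0.18 below parental cells (0.869). Of 10 other small leucine-rich proteoglycans, 4 were tested. TSKU, a secreted regulator of growth factor signalling, fell by 0.45 with guide 1 (edgeR adjusted p = 0.0386) and by 0.57 with both guides (0.0371) against empty vector, and by 0.50 in parental cells (0.0292).

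Among 25 binding partners and receptors of decorin, 21 were tested. Against empty vector 1 rose and 3 fell with guide 1, 2 fell with guide 2, and 1 rose and 1 fell with both guides. Of all genes, 5.88%, 3.94% and 0.962% passed there. COL1A1, the main chain of the collagen that decorin coats, fell against empty vector by 1.61 with guide 1 (SE 0.34, edgeR adjusted p = 0.0183), 1.74 with guide 2 (SE 0.34, 0.0166) and 1.81 with both guides (SE 0.34, 0.0293). Its means were 5.06, 4.65 and 4.45 CPM in those lines, 15.3 CPM with empty vector and 10.4 CPM in parental cells. Against parental cells its differences were -1.01, -1.14 and -1.21, and none passed (edgeR adjusted p 0.186, 0.378 and 0.176). COL6A2, a chain of collagen VI, rose with both guides by 1.93 against empty vector (SE 0.26, adjusted p = 0.00566) and by 2.15 against parental cells (0.0091), to a mean of 2.74 CPM from 0.703 and 0.619 CPM. TLR2, a receptor of decorin and biglycan, fell by 3.91 with guide 1 (SE 0.89, adjusted p = 0.0234), and KDR, the VEGF receptor that decorin binds, rose by 1.86 (SE 0.46, 0.0352). Parental cells lay 1.45 above empty vector for KDR (adjusted p = 0.0948), and guide 1 lay 0.41 above parental cells (0.593).

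TLR4 and COL1A2 differed between the controls as well. TLR4 rose against parental cells by 2.34, 2.61 and 2.68 with guide 1, guide 2 and both guides (adjusted p 0.0465, 0.0436 and 0.0151), but its parental level was itself below empty vector by -2.27 (0.0105), and against empty vector the lines lay at 0.06, 0.34 and 0.41 with adjusted p of 0.946, 0.69 and 0.719. COL1A2 fell against parental cells with guide 1 (-2.47, adjusted p = 0.0227) and with both guides (-2.66, 0.0125), and parental cells lay 2.15 above empty vector (0.00888), all at or under a mean of 0.530 CPM.

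Among 23 other proteoglycans, 18 were tested. TGFBR3, betaglycan, rose against empty vector by 1.23 with guide 1 (SE 0.20, edgeR adjusted p = 0.006) and 0.85 with guide 2 (0.0318). GPC6, a glypican, rose by 0.60 (0.0112) and 0.44 (0.0472). Both also rose in parental against empty vector, by 0.80 (0.0398) and 0.53 (0.0221). SDC1, the main syndecan of epithelia, fell by 1.82 with guide 1 (SE 0.37, 0.0149). For SDC1, parental cells lay 0.97 below empty vector (edgeR adjusted p = 0.15), and guide 1 lay 0.86 below parental cells (0.225). Of the 10 proteases known to cleave or process these proteins, all were tested. MMP14, a membrane-bound collagenase, fell by 1.08 with guide 1 (0.00577), by 0.92 with guide 2 (0.013) and by 0.75 in parental cells (0.0291). MMP9, a gelatinase, had 0 counts in all guide 1 libraries and a mean of 7.22 CPM with empty vector (adjusted p = 0.012), for which no fold is given. MMP9 was also called lower with guide 2 against empty vector (edgeR adjusted p = 0.0253) and in the mean of the edited lines (0.0174), but not with both guides (0.133). Guide 1 did not pass against parental cells (0.155). Parental cells lay below empty vector without passing (0.151).

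Most of these context calls depended on single libraries. Of 38 calls in comparisons of edited lines with controls, 5 were kept in all 15 fits that left out 1 library: TGFBR3 and MMP14 with guide 1, COL6A2 with both guides against each control, and COL1A1 in the edited lines averaged against both controls, where it fell by 1.42 (edgeR adjusted p = 0.00881). All 38 held without guide 2 replicate 2, and 26 were lost without empty vector replicate 3.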

How the data were processed

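Poly(A) RNA was sequenced from 15 libraries. Raw counts for each gene and CPM values, both deposited by the authors, came as 2 tables. The CPM matched CPM recomputed from the counts to within 4.91e-11. Per the submitters' processing notes, Trim Galore 0.6.0, STAR 2.7.8a and GRCh38 were used. The counting program, the annotation release and the use of strand are not given in the sources used here. Positions and exon lengths come from GENCODE release 29.

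Counts were tested with edgeR 4.0.16 in R 4.3.3: filterByExpr by genotype, TMM scaling, 1 quasi-likelihood group-means fit over 15 libraries (10 residual degrees of freedom), and Benjamini-Hochberg adjustment over 17457 genes, two-sided, at 0.05. Standard errors are the log2 fold change over the square root of F. Alternatives were RLE scaling, no filter, a replicate block, only the compared genotypes, DESeq2 1.42.0, and each library left out. Likeness to DCN was computed on log2 CPM (prior count 2). Floors of 3 counts cover counting error only. The procedure was run on simulated counts with a known change in guide 1 only. That simulation held no outlying library like guide 2 replicate 2, and its outcome is not given here. Replicates differed beyond sampling noise in 24.6% to 76.8% of genes (20 or more counts in a pair), so each was counted. Python 3.11.15, numpy 2.4.6, pandas 2.3.3 and matplotlib 3.10.9 were used.

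Named genes were the 8 members, NF1, the 5 most and 3 least like DCN, neighbouring or overlapping genes, and up to 6 called genes of each context list by size of change. CDH1 and the other cell type markers came from marker lists. The members and lists were chosen with earlier results of these data known.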

Additional observations from a re-analysis of the deposited data

Results flagged for a closer look

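Lumican is the 1 result set apart by a test of a difference between edited lines: the line with both guides lay at -2.97 on the log2 scale against guide 1 (SE 0.54, edgeR adjusted p = 0.0415), and the 3 guide 1 libraries (1.08 to 1.54 CPM) did not overlap those with both guides (0.0891 to 0.232 CPM). It passed in 5 of 15 fits that left out 1 library.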

How the results depend on the processing

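The number of members called was recomputed for each comparison, from 1 of 3 for guide 1 and for guide 2 against empty vector, 1 of 4 for both guides against guide 1, and 0 elsewhere. RLE scaling moved none of these counts. Without a count filter, 1 passed for guide 1 against parental, guide 1 against guide 2 and the mean of the edited lines. With the replicate block, 0 passed for guide 2 against empty vector (BGN at -2.70, edgeR adjusted p = 0.0989) and 0 for both guides against guide 1. Libraries of equal number had a mean correlation of -0.05 over 30 pairs (-0.749 to 0.279). The 60 other pairs had 0.028 (-0.595 to 0.69). With so wide a spread, these means cannot decide whether equal numbers pair the libraries. With only the compared genotypes, 2 passed for guide 1 and 0 for guide 2 against empty vector, 1 for both guides against empty vector and against parental, and 2 for both guides against guide 1, DCN among them. DESeq2 called 1 for both guides against empty vector, guide 1 against parental and the mean of the edited lines, and 2 for guide 1 and guide 2 compared and for both guides against guide 1. Leaving out 1 library gave 0 to 2 for guide 1 against empty vector and for both guides against guide 1, and 0 to 1 for guide 2 and for both guides against empty vector, guide 1 against parental, guide 1 against guide 2 and the mean of the edited lines. Without guide 2 replicate 2, guide 1 against empty vector and both guides against guide 1 had 2 each. DCN in both guides against guide 2 ran from -0.60 to 0.31 over these fits. The cause was not tested. Low counts limit LUM (5 to 122), BGN (8 to 413) and ECM2 (31 to 190).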
